A study of Mus musculus with 3 samples.

Results

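The 9 genes T, Gsc, Mixl1, Snai1, Snai2, Zeb2, Cdh1, Cdh2 and Vim were examined in mouse ES cells before and after loss of Nr0b1 (also called Dax1). They were taken by name from the array annotation, which gave 12 probes for the 9 genes among 35019 different gene names. A gene was tested where a probe of it stood well above background on all arrays of some group, which left 8 of the 9 genes with 9 probes, among 22432 genes tested in all. Mixl1 was the gene left out.

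The cells were EB5 ES cells, a male line derived from E14tg2a, in which the exon 2 of the X-linked Nr0b1 gene had been flanked by loxP sites and which carried the tamoxifen-dependent recombinase MerCreMer and Egfp as transgenes. Each of 3 groups gave 3 arrays, 9 in all. The cells labelled Dax1-floxed, of genotype Dax1 flox/Y, were cultured without 4-hydroxy tamoxifen (Tx) and are written −Tx below. The cells labelled Dax1 induced KO had Tx for 4 days and are written +Tx. The cells labelled Dax1 KO carry the deleted allele as an established state and are written KO/Y. The targeted locus and the inducible recombinase are thus shared background of the −Tx and +Tx groups. The paper describes KO/Y lines as descendants of such floxed cells, isolated as colonies after Tx, so they share this background. Between −Tx and +Tx ES cells, Tx and the active recombinase cannot be told apart from the deletion. In comparisons with KO/Y ES cells, isolation as colonies and further culture cannot be told apart from it either. Which lines gave the arrays of a group is not given in the sources used here. The study set +Tx against −Tx to read the early response to the deletion, and KO/Y against +Tx to read what sets in later. The study describes biological triplicates, and the arrays are numbered here by their position on the slides, because the sources used here do not tie a replicate to an array. The ES cells are described as cultured with or without feeder cells made of mouse embryonic fibroblasts, and which of these held for the array samples is not given in the sources used here.

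Nr0b1 itself had a log2 level of 4.23 ± 0.088 (SD, n = 3) above the array's 75th percentile in −Tx ES cells and −2.42 ± 0.128 (SD, n = 3) in +Tx ES cells, a 101-fold lower signal (adjusted p = 5.7e-09, limma). Its probe was still well above background on 3 of 3 +Tx arrays. In KO/Y ES cells its probe was well above background on 0 of 3 arrays, at least 322-fold lower than in −Tx ES cells. This is the state in which the genes below were read. Between 51.8% and 58.4% of the 55681 probes were well above background on an array, with the lowest share on +Tx array 2. Slide 1 held the 3 −Tx arrays and +Tx array 1, and slide 2 held the other +Tx arrays and the 3 KO/Y arrays, so −Tx and KO/Y ES cells never shared a slide.

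The epithelial-mesenchymal transition (EMT) is the change by which cells of an epithelial sheet loosen their junctions, rebuild their cytoskeleton and move apart. In the early embryo it takes place in the primitive streak, where epiblast cells become mesendoderm under Nodal, BMP and Wnt signals. The T-box factor T (Brachyury) and the homeobox factors Gsc (Goosecoid) and Mixl1 mark that step, while the zinc finger factors Snai1 (Snail), Snai2 (Slug) and Zeb2 bind E-boxes and repress Cdh1 (E-cadherin), the adhesion molecule that holds ES cell colonies together. Cdh2 (N-cadherin) and the intermediate filament Vim (vimentin) are the usual markers of the mesenchymal state. Vim, Snai2, Zeb2 and Cdh2 are also expressed by fibroblasts.

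The sequences upstream of the 3 genes that passed both limits of the study's call in KO/Y over −Tx ES cells are shown because the proteins encoded by Snai1 and T belong to the factors whose own binding words can be searched in them. They were taken from RefSeq on GRCm38.p6, in which 5 of the 9 genes had an entry, and each run holds the 250 bases before the annotated start, 5′ to 3′ on the strand of the gene, with any of 4 searched words in capitals. The first word was CAGGTG, an E-box bound by Snail and ZEB factors. The second was TCACACCT, a T-box word. The third was CTTTGAT, a TCF/LEF word of Wnt signalling. The last was CAAGGTCA, a word of orphan nuclear receptors such as Nr5a2 and Esrrb, the family whose members Nr0b1 binds. All were searched on both strands, and the E-box and the T-box word can overlap.
Snai1, chr2:167537945-167538194, plus strand: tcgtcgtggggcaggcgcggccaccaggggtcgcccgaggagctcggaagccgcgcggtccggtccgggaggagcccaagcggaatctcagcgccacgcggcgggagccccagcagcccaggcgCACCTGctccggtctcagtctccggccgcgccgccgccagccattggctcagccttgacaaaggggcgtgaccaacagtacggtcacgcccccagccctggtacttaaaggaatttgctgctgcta
T, chr17:8434173-8434422, plus strand: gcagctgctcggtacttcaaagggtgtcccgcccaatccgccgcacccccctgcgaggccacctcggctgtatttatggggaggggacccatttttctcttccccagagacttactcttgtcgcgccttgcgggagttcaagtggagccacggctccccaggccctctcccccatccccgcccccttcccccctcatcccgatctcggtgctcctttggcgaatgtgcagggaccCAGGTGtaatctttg
Gsc, chr12:104473237-104473486, minus strand: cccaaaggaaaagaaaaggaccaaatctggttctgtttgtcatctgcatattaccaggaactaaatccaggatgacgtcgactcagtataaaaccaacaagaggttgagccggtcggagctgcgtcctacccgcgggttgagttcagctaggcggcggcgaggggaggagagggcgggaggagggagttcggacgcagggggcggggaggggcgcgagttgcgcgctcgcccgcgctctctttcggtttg

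The capitals in the runs of Snai1 and T mark 1 E-box word each. It began 126 bases before the start of Snai1, as its reverse complement, and 15 bases before the start of T. The run of Gsc held none of the 4 words, nor did that of Vim or any of the 4 entries of Zeb2. Over all 32851 windows of the table, 17.2% held the E-box word, 1.12% the T-box word, 3.21% the TCF/LEF word and 1.33% the nuclear receptor word. A match is a description of letters. The run of Snai1 was 70% G or C, that of T 62.8% and that of Gsc 59.2%, beside a median of 52.4% over all windows.

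Snai1, the founding repressor of E-cadherin at gastrulation, gave the clearest separation of the 3 groups. Its log2 levels, all given above the array's 75th percentile, were 0.94, 1.04 and 1.06 on the −Tx arrays. They were 1.34, 1.40 and 1.40 on the +Tx arrays. They were 2.02, 2.03 and 2.02 on the KO/Y arrays. No array of one group reached the range of another, and the order was −Tx, +Tx, KO/Y. The difference of Snai1 on the log2 scale was 0.37 (adjusted p = 0.00254, limma, standard error 0.057) in +Tx over −Tx ES cells and 0.64 (adjusted p = 0.000127) in KO/Y over +Tx ES cells. Between KO/Y and −Tx ES cells the step was 1.01 (standard error 0.057, adjusted p = 3.18e-06), a 2.01-fold higher signal. That sits just over the 2-fold limit, and the gene was called in 19 of 22 settings of the processing, with log2 fold changes from 0.936 to 1.048. Several of these settings, such as other variance estimates or a +Tx array left out, cannot move this fold. This tally, like those of T and Gsc below, is therefore no measure of robustness. In a test against a fold of 2, 0 of the members were called.

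Snai2, the paralogue of Snai1 best known from neural crest and from fibroblasts, moved less. Its log2 levels were 1.92, 1.92 and 1.88 in −Tx ES cells. They were 2.18, 2.13 and 2.41 in +Tx ES cells. They were 2.43, 2.39 and 2.52 in KO/Y ES cells. The −Tx arrays lay below all others, and +Tx array 3 lay inside the KO/Y range. The log2 fold change was 0.33 (adjusted p = 0.0198, limma) in +Tx over −Tx ES cells, 0.21 (adjusted p = 0.0999) in KO/Y over +Tx ES cells and 0.54 (adjusted p = 0.000793) in KO/Y over −Tx ES cells. Without +Tx array 3, the difference between KO/Y and +Tx ES cells was 0.294 (adjusted p = 0.0153). Without any 1 of the 3 −Tx arrays, the difference of +Tx from −Tx ES cells did not pass (adjusted p = 0.051, 0.0577 and 0.0657).

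Zeb2, a Smad-interacting repressor that acts with the Snail factors, was read by 3 probes. The probe at position 5433 of the transcript gave log2 levels of −0.77, −0.70 and −0.84 in −Tx ES cells. It gave −0.49, −0.47 and −0.25 in +Tx ES cells. It gave −0.08, −0.29 and −0.21 in KO/Y ES cells. As with Snai2, the −Tx arrays lay below all others and +Tx array 3 lay among the KO/Y arrays. The log2 fold change was 0.37 (adjusted p = 0.0167, limma) in +Tx over −Tx, 0.21 (adjusted p = 0.118) in KO/Y over +Tx and 0.58 (adjusted p = 0.000779) in KO/Y over −Tx ES cells. Without +Tx array 3 the KO/Y over +Tx value was 0.285 (adjusted p = 0.0399), and without −Tx array 3 the +Tx over −Tx value was 0.333 and did not pass (adjusted p = 0.0619). The probe at position 8169 was well above background on 1 KO/Y array alone, and the probe of a short transcript on none, so that neither was tested.

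T, the T-box factor of the primitive streak and notochord, was dim. Its intensities ran from 30.0 to 86.3, where the lowest signal well above background on an array lay between 19.6 and 28.2. The log2 levels were −3.24, −3.29 and −3.21 in −Tx ES cells. They were −2.95, −3.44 and −2.89 in +Tx ES cells, where the lowest value, on +Tx array 2, was not well above background, so that 2 of 3 arrays measured it. They were −2.35, −2.18 and −2.18 in KO/Y ES cells. The KO/Y arrays lay above all others, while the +Tx and −Tx arrays overlapped. The log2 fold change was 0.15 (standard error 0.137, adjusted p = 0.453, limma) in +Tx over −Tx and 0.86 (adjusted p = 0.00247) in KO/Y over +Tx ES cells. Between KO/Y and −Tx ES cells the step was 1.01 (standard error 0.137, adjusted p = 0.000417), a 2.01-fold higher signal. Another correction of the background, normexp, gave 0.348 (adjusted p = 0.00324) for this last value and −0.014 for the first, and T was called in 16 of 21 settings. Without +Tx array 2 the +Tx over −Tx value was 0.325 (adjusted p = 0.0294).

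Gsc, the homeobox factor of the anterior streak and organizer, showed the largest log2 fold change of the 8 genes tested. Its log2 levels were −2.34, −1.94 and −2.27 in −Tx ES cells. They were −1.74, −1.99 and −1.93 in +Tx ES cells. They were −1.01, −0.83 and −1.09 in KO/Y ES cells. The KO/Y arrays stood clear of the other 6, which overlapped through −Tx array 2. The log2 fold change was 0.30 (standard error 0.122, adjusted p = 0.109, limma) in +Tx over −Tx and 0.91 (adjusted p = 0.00105) in KO/Y over +Tx ES cells. The step from −Tx to KO/Y ES cells was 1.21 (standard error 0.122, adjusted p = 8.67e-05), a 2.31-fold higher signal, and was called in 21 of 22 settings. The setting that lost the call was normexp, with 0.777. Without −Tx array 2 the first value was 0.419 (adjusted p = 0.0368).

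Mixl1, the homeobox factor that patterns the mesendoderm leaving the streak, stayed near background on all 9 arrays, none of which read it well above background. Its intensities were 4.30 to 6.12, and no level or fold is given for it.

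Cdh1 was the member that fell. Its probe, spotted 10 times on each array, gave log2 levels of 3.19, 3.26 and 3.38 in −Tx ES cells. It gave 2.83, 2.71 and 2.87 in +Tx ES cells. It gave 2.83, 2.74 and 2.79 in KO/Y ES cells. The −Tx arrays lay above all others, and the +Tx and KO/Y arrays covered the same range. The log2 fold change was −0.48 (standard error 0.073, adjusted p = 0.00234, limma) in +Tx over −Tx ES cells, a 1.39-fold lower signal. It was −0.49 (standard error 0.073, adjusted p = 0.000663) in KO/Y over −Tx ES cells, 1.41-fold lower, and −0.01 (standard error 0.073, adjusted p = 0.906) in KO/Y over +Tx ES cells.

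Cdh2 did not pass in any comparison. The probe at position 4413 gave log2 levels of 1.24, 1.16 and 1.16 in −Tx ES cells, 1.26, 1.23 and 1.39 in +Tx ES cells and 1.26, 1.21 and 1.25 in KO/Y ES cells. The probe at position 4586 gave 0.65, 0.60 and 0.67 in −Tx, 0.59, 0.79 and 0.85 in +Tx and 0.61, 0.63 and 0.63 in KO/Y ES cells. On both probes the groups overlapped in all 3 comparisons. Between KO/Y and −Tx ES cells the first probe differed by 0.05 on the log2 scale (adjusted p = 0.537, limma, standard error 0.064), and the second, fitted on its own, by −0.02 (adjusted p = 0.868, standard error 0.076).

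Vim, a cytoskeletal gene abundant in fibroblasts, rose by a small step early. Its log2 levels were 6.90, 7.01 and 6.95 in −Tx ES cells. They were 7.23, 7.19 and 7.28 in +Tx ES cells. They were 7.33, 7.18 and 7.32 in KO/Y ES cells. The −Tx arrays lay below all others, and the +Tx range fell within the KO/Y range. The log2 fold change was 0.28 (standard error 0.067, adjusted p = 0.0165, limma) in +Tx over −Tx, 0.04 (adjusted p = 0.703) in KO/Y over +Tx and 0.32 (adjusted p = 0.00419) in KO/Y over −Tx ES cells. Without −Tx array 1 or −Tx array 3 the first value did not pass (adjusted p = 0.0589 and 0.0535).

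**Figure D1:**
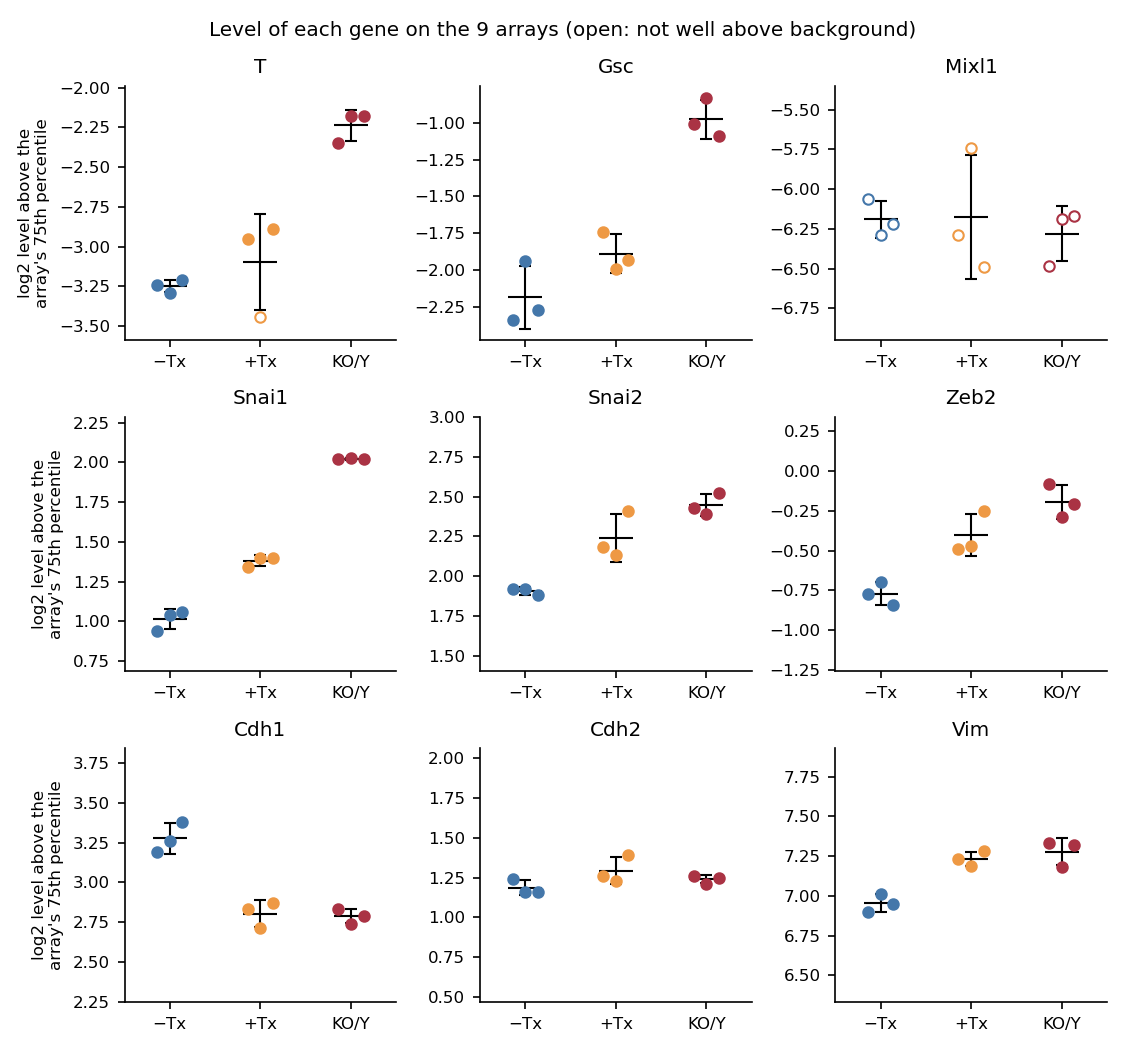
Log2 level of each gene above the 75th percentile of its array (vertical axes, a range of its own per gene) in the 3 groups of ES cells; points are arrays, open where the probe was not well above background, and bars are the mean ± SD of 3 arrays, with the probe at position 5433 for Zeb2 and at 4413 for Cdh2. Snai1 separates all 3 groups, T and Gsc rise in KO/Y, and Cdh1 is lower and Vim higher in both +Tx and KO/Y than in −Tx.

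Over the 8 genes tested, 4 rose (Snai1, Snai2, Zeb2 and Vim) and 1 fell (Cdh1) in +Tx over −Tx ES cells, with a median log2 fold change of 0.29. Over all 22432 genes, 12.0% rose and 14.5% fell by the same test, with a median of −0.06. None of the 8 was called, that is, changed by over 2-fold with an adjusted p under 0.05 (limma), beside 1.76% of all genes called higher and 0.753% called lower. Taken without adjustment, 5 of them had a p under 0.05 with a higher and 1 with a lower signal.

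From +Tx to KO/Y ES cells, 3 genes rose (T, Gsc and Snai1) and 0 fell, with a median of 0.21 beside 0.01 over all genes. Over all genes 12.0% rose and 14.2% fell. None of the 8 was called (limma), where 2.37% of all genes were called higher and 1.07% lower, and 5 were higher at an unadjusted p under 0.05.

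Between the outer groups, KO/Y over −Tx ES cells, 6 genes rose (T, Gsc, Snai1, Snai2, Zeb2 and Vim) and 1 fell (Cdh1), with a median of 0.56 beside −0.06 over all genes. Over all genes 20.6% rose and 26.3% fell. T, Gsc and Snai1 were called higher, 3 of 8, where 4.73% of all genes were called higher and 2.83% lower. The 3 comparisons share their arrays in pairs, so their values are set side by side and are not independent.

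**Figure D2:**
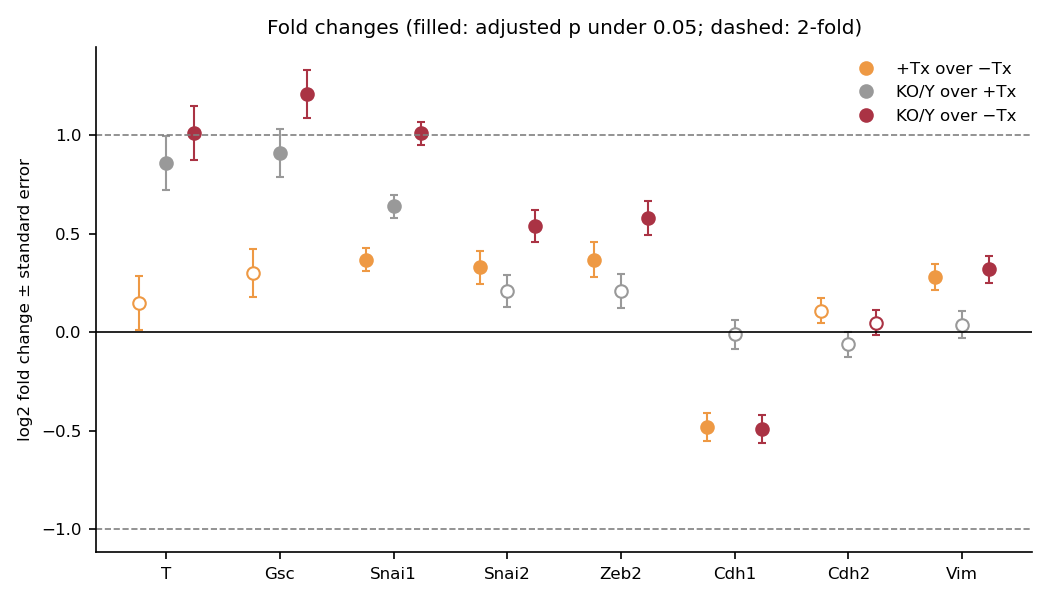
Log2 fold change ± standard error (limma, 3 arrays per group) of the 8 genes tested in 3 comparisons; filled points have an adjusted p under 0.05 and dashed lines mark a 2-fold change. T, Gsc and Snai1 reach the 2-fold line in KO/Y over −Tx, and Cdh1 is the one gene below 0 by more than its error.

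Part of these counts moved when the slide was taken into account. The shares over all genes given above belong to the fit without the slide. None was computed for the slide fits, here or for the lists below, so their counts have no share beside them. With the slide as a block, the +Tx over −Tx values were 0.328 for Snai1 (adjusted p = 0.0532), 0.267 for Snai2 (adjusted p = 0.209), 0.28 for Zeb2 (adjusted p = 0.204), 0.277 for Vim (adjusted p = 0.134) and −0.454 for Cdh1 (adjusted p = 0.0428), so that 1 of the 5 genes passed. All of them kept their direction. These values rest on +Tx array 1 alone, the one +Tx array on slide 1, so a fit of that slide by itself gave the same values, with 0 of the 8 past the adjusted p, and adds no separate evidence.

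For KO/Y over +Tx ES cells the values within slide 2 were 0.927 for T (adjusted p = 0.025), 0.981 for Gsc (adjusted p = 0.00459) and 0.622 for Snai1 (adjusted p = 0.00849), and the 3 genes passed there too. KO/Y and −Tx ES cells could be tied through the +Tx arrays alone. With the block, T had 1.218 (adjusted p = 0.013), Gsc 1.424 (adjusted p = 0.00434) and Snai1 0.95 (adjusted p = 0.00127), so that Snai1 passed the test but was under 2-fold and 2 genes were called in place of 3. Snai2 had 0.443 (adjusted p = 0.0799), Zeb2 0.445 (adjusted p = 0.088), Vim 0.315 (adjusted p = 0.131) and Cdh1 −0.457 (adjusted p = 0.055). These 4 kept their direction and did not pass.

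**Figure D3:**
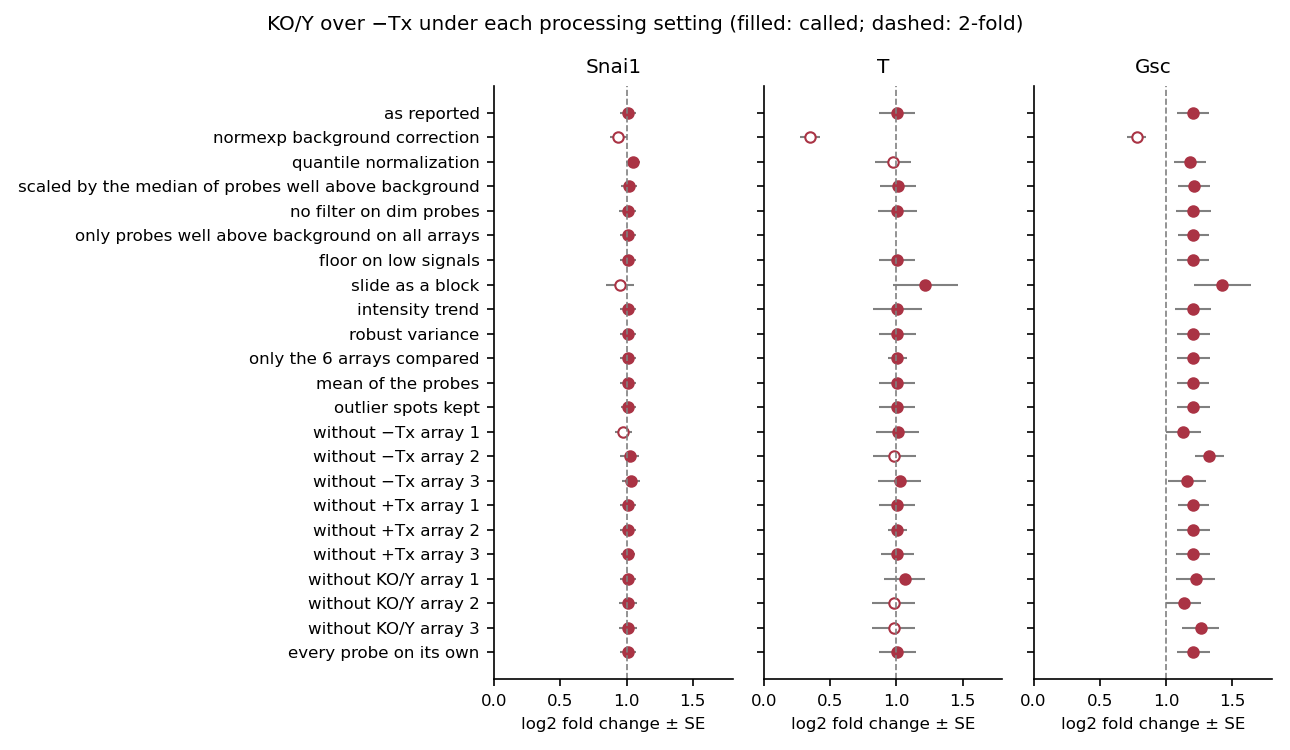
Log2 fold change ± standard error of Snai1, T and Gsc in KO/Y over −Tx ES cells (horizontal axes) under each setting of the processing (rows); filled points were called, the dashed line marks 2-fold, and a setting without a point could not test the gene. Snai1 and T lie on the line, so small changes of the settings move them across it, and T falls to 0.348 with normexp.

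As a list, markers of fibroblasts, the cells used as feeders, rose in both steps. In KO/Y over +Tx ES cells 12 of the 26 tested did not pass, nor did Vim, with 0.04. Of 26 such markers tested, 16 rose and 0 fell in +Tx over −Tx ES cells (median log2 fold change 0.35), 14 rose and 0 fell in KO/Y over +Tx ES cells (median 0.32), and 25 rose and 0 fell in KO/Y over −Tx ES cells (median 0.68). Their summed level, in units of the array's 75th percentile, was 628 to 653 on the −Tx arrays, 796 to 826 on the +Tx arrays and 916 to 969 on the KO/Y arrays. The 7 defining genes (the collagens Col1a1, Col1a2 and Col3a1, the surface protein Thy1 and the matrix proteins Postn, Dcn and Lum) were well above background on 9 of 9 arrays, none at 0.

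Among these, Col1a2 had log2 fold changes of 0.25 in +Tx over −Tx, 0.27 in KO/Y over +Tx and 0.52 in KO/Y over −Tx ES cells (adjusted p = 0.0471, 0.04 and 0.000813, limma). Col1a1 had 0.27, 0.27 and 0.55, of which the last passed (adjusted p = 0.00242). Thy1 rose by 0.37, 0.32 and 0.69, and Lum was the one marker called, with 1.12 in KO/Y over −Tx ES cells (adjusted p = 2.34e-05). Under the slide block 7 markers rose in +Tx over −Tx and 13 in KO/Y over −Tx ES cells. The part of fibroblast RNA in the values of Vim, Snai2, Zeb2, Snai1 and the mesenchymal genes was not tested. In these bulk samples fewer cells of a type and less RNA per cell cannot be told apart.

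Other genes of the transition were described from lists, by their counts beside the shares over all genes given above. Of 13 other EMT transcription factors tested, 6 rose and 2 fell in +Tx over −Tx ES cells (median 0.27), 3 rose and 2 fell in KO/Y over +Tx (median 0.12), and 9 rose and 3 fell in KO/Y over −Tx (median 0.48). None was called. Zeb1, the paralogue of Zeb2, had log2 levels of 0.71 ± 0.12 in −Tx, 0.98 ± 0.207 in +Tx and 1.19 ± 0.141 in KO/Y ES cells (SD, n = 3), and rose in KO/Y over −Tx ES cells by 0.48 (adjusted p = 0.0112, limma). Twist1, a bHLH factor of mesoderm and fibroblasts, rose by 0.56 in the same comparison (adjusted p = 0.00109). Twist2 and Prrx1 of this list are counted among the fibroblast markers as well. The counts of these lists are therefore not separate evidence. Tcf3, which encodes E-box binding E2A proteins, fell by 0.55 in KO/Y over −Tx ES cells, and Klf8, a Krüppel-like zinc finger factor, fell by 0.68, both named after their values were seen. Under the slide block 2 rose and 1 fell in +Tx over −Tx, and 4 rose and 3 fell in KO/Y over −Tx ES cells.

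Mesenchymal genes of the cytoskeleton and matrix rose together after 4 days with Tx. Of 26 tested, 19 rose and 0 fell in +Tx over −Tx ES cells (median 0.41), and none was called. The step to KO/Y over +Tx ES cells had 4 that rose and 3 that fell (median 0), and in KO/Y over −Tx ES cells 23 rose and 0 fell (median 0.42). Fn1 (fibronectin) had log2 levels of 8.04 ± 0.031 in −Tx, 8.42 ± 0.155 in +Tx and 8.48 ± 0.075 in KO/Y ES cells (SD, n = 3), so that its rise of 0.38 lay in the first step (adjusted p = 0.0131, limma). Sparc, a matrix protein also made by parietal endoderm, had 9.12 ± 0.014, 9.25 ± 0.033 and 9.62 ± 0.105, with a rise of 0.37 in KO/Y over +Tx ES cells (adjusted p = 0.00425). Itgav and Tnc, chosen after their values were seen, had 0.69 and 0.65 in +Tx over −Tx ES cells (adjusted p = 0.00129 and 0.00305). The summed level was 1650 to 1700 in −Tx, 1960 to 2030 in +Tx and 2160 to 2380 in KO/Y ES cells, of which Sparc made up 29.5% to 35.1%. Without Sparc it was 1100 to 1150, 1330 to 1430 and 1430 to 1550, so that the sum was higher in +Tx than in −Tx ES cells while +Tx and KO/Y ES cells met at the edge of their ranges. With the slide as a block 7 rose in +Tx over −Tx and 9 in KO/Y over −Tx ES cells.

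Epithelial genes of junctions and polarity fell with Cdh1 in the first step. Of 34 tested, 0 rose and 16 fell in +Tx over −Tx ES cells (median −0.27), and their summed level was 192 to 198 in −Tx and 165 to 174 in +Tx ES cells. Rab25, a small GTPase of apical membrane recycling, fell by 1.70 (adjusted p = 6.36e-05, limma), and Cldn4, a tight junction claudin, by 1.47 (adjusted p = 0.00126). Both were called, and Rab25 was well above background on 2 of the 3 +Tx arrays. Epcam, the adhesion molecule found across epithelia, had −0.20 (adjusted p = 0.102), and Ctnnb1 and Tjp1, chosen after their values were seen, had −0.08 and 0.04, neither of which passed.

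The same list in KO/Y over +Tx ES cells had 10 that rose and 5 that fell (median 0.01), and 4 were called higher. These were the simple-epithelium keratins Krt18 and Krt8, with 2.09 and 2.01, and the desmosome genes Dsp and Dsg2, with 1.39 and 1.18 (adjusted p = 1.89e-06, 3.77e-06, 1.79e-05 and 0.00165, limma). Krt18 and Krt8 had fallen in the first step, with −0.28 and −0.40. Over both steps, KO/Y over −Tx ES cells, 6 rose and 12 fell (median −0.17). Krt18 (1.81), Krt8 (1.61), Dsp (1.51) and Ovol1 were called higher, and Rab25 (−1.70) was called lower. The signal of Ovol1 was not well above background in −Tx ES cells, and its bound, at least 1.75-fold, was under the 2-fold limit. The keratins are also genes of trophectoderm and of primitive endoderm. Under the slide block 7 fell in +Tx over −Tx, and 4 rose and 5 fell in KO/Y over −Tx ES cells.

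**Figure D4:**
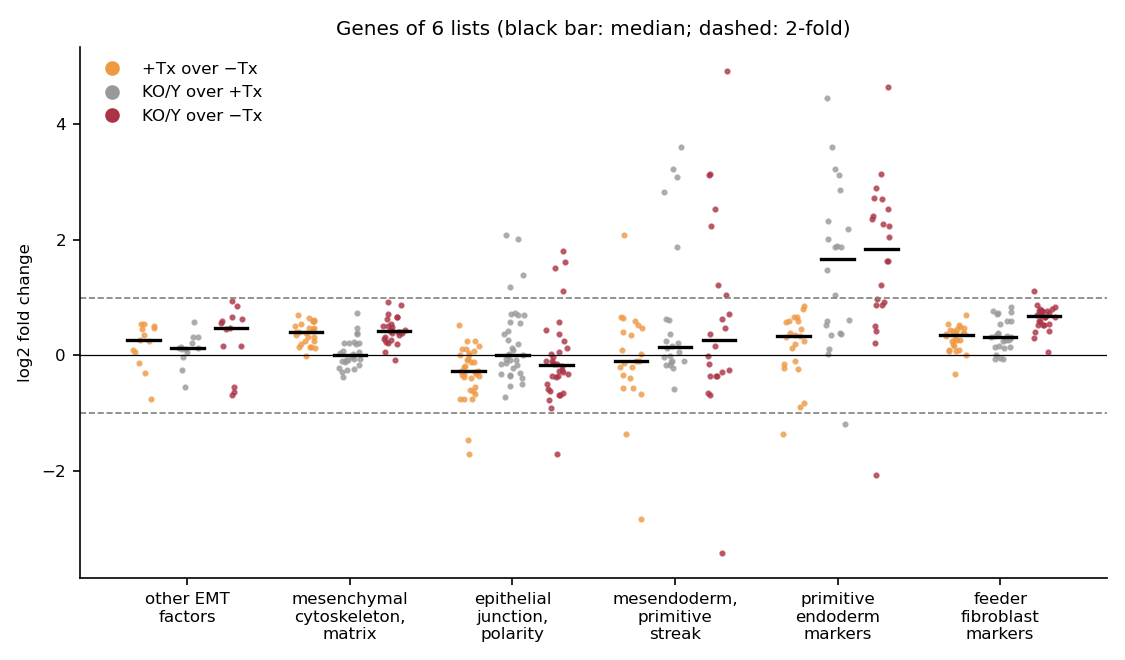
Log2 fold changes of the tested genes of 6 lists in 3 comparisons; each point is a gene, black bars are medians and dashed lines mark 2-fold. The mesenchymal genes shift in +Tx over −Tx (median 0.41) and not further in KO/Y over +Tx (median 0), while primitive endoderm markers spread upward in KO/Y.

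Of 30 other genes of mesendoderm and primitive streak, 22 were tested, and Mesp1, Wnt3, Wnt3a, Wnt8a, Msgn1, Noto, Dll1 and Cdx4 had no signal well above background on every array of any group. In +Tx over −Tx ES cells 5 rose and 5 fell (median −0.10). Hand1, a bHLH factor of extraembryonic and lateral mesoderm, was at least 2.5-fold higher (adjusted p = 0.000175, limma), and Sp5, a target of Wnt signalling, and Foxa2, a factor of endoderm and notochord, were called lower, with −2.84 and −1.37. For Foxa2, 1 of 3 +Tx arrays was well above background, and with each array held at no less than its lowest such signal, a floor added after the values were seen, it was 1.91-fold lower and not past 2-fold. Eomes, the T-box factor that acts beside T in the streak, had log2 levels of −0.93 ± 0.182 in −Tx, −0.58 ± 0.08 in +Tx and −0.21 ± 0.193 in KO/Y ES cells (SD, n = 3) and rose in KO/Y over −Tx ES cells by 0.72 (adjusted p = 0.00133).

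Of the 22, in KO/Y over −Tx ES cells, 10 rose and 6 fell (median 0.26), with 7 called higher. Hand1 was at least 17.7-fold, Sox17 at least 5.34-fold and Cer1 at least 2.25-fold higher, and Gata6, Foxa2 and Pdgfra had 2.54, 2.24 and 1.21. The last was Cdx2, well above background on 1 of 3 −Tx arrays, whose log2 fold change of 1.04 became 0.50 with each array held at no less than its lowest signal well above background, under the 2-fold limit. Cer1, Pdgfra and Cdx2 were named after their values were seen. Sox17, Cer1 and Cdx2 passed the filter on dim probes through the KO/Y arrays alone, so the filter favoured their rise. Sp5 was called lower, with −3.43. In KO/Y over +Tx ES cells 7 rose and 1 fell (median 0.15), and Foxa2, Hand1 (2.82), Gata6 (1.88), Sox17 (at least 5.25-fold) and Cer1 (at least 2.21-fold) were called higher. Foxa2, with 1 of 3 +Tx arrays well above background, was 9.03-fold higher with the arrays held at that floor. Gata6, Sox17, Foxa2 and Pdgfra are genes of primitive endoderm as well as of mesendoderm. With the slide as a block 3 rose and 4 fell in +Tx over −Tx, and 6 rose and 3 fell in KO/Y over −Tx ES cells.

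Markers of primitive endoderm, the extraembryonic lineage of the yolk sac, rose mostly from +Tx to KO/Y ES cells, the step in which T and Gsc passed. Of 22 tested, 7 rose and 3 fell in +Tx over −Tx ES cells (median 0.33), 19 rose and 1 fell in KO/Y over +Tx (median 1.67, 13 called higher), and 20 rose and 1 fell in KO/Y over −Tx (median 1.84, 14 called higher). Under the slide block 2 rose and 2 fell in +Tx over −Tx, and 15 rose and 1 fell in KO/Y over −Tx ES cells. Their summed level was 686 to 694 on the −Tx, 726 to 741 on the +Tx and 916 to 981 on the KO/Y arrays, but Sparc, which the mesenchymal list also holds, made up 79.5% to 85.4% of it. Without Sparc, a sum chosen after the values were seen, it was 130 to 132 on the −Tx, 115 to 128 on the +Tx and 143 to 188 on the KO/Y arrays. This sum still holds a bright marker with log2 levels of 6.03 in −Tx, 5.13 in +Tx and 3.95 in KO/Y ES cells. The sum therefore does not give the course of the other markers. Sox17 was well above background on none of the −Tx and +Tx arrays and had −1.59 ± 0.34 (SD, n = 3) in KO/Y ES cells. It was tested through the KO/Y arrays alone, as were other markers of this list, so the filter favoured their rise. The part of primitive endoderm RNA in the values of T, Gsc and Snai1 was not tested. Markers of ES cells were present in all 3 groups. Pou5f1 had 3.56 ± 0.045 in −Tx, 3.43 ± 0.351 in +Tx and 2.92 ± 0.474 in KO/Y ES cells (SD, n = 3), and 3 of 16 ES cell markers rose and 8 fell in KO/Y over −Tx ES cells, with Sox2 at −0.52 (adjusted p = 0.000668, limma) and Nanog at −0.10 (adjusted p = 0.718).

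**Figure D5:**
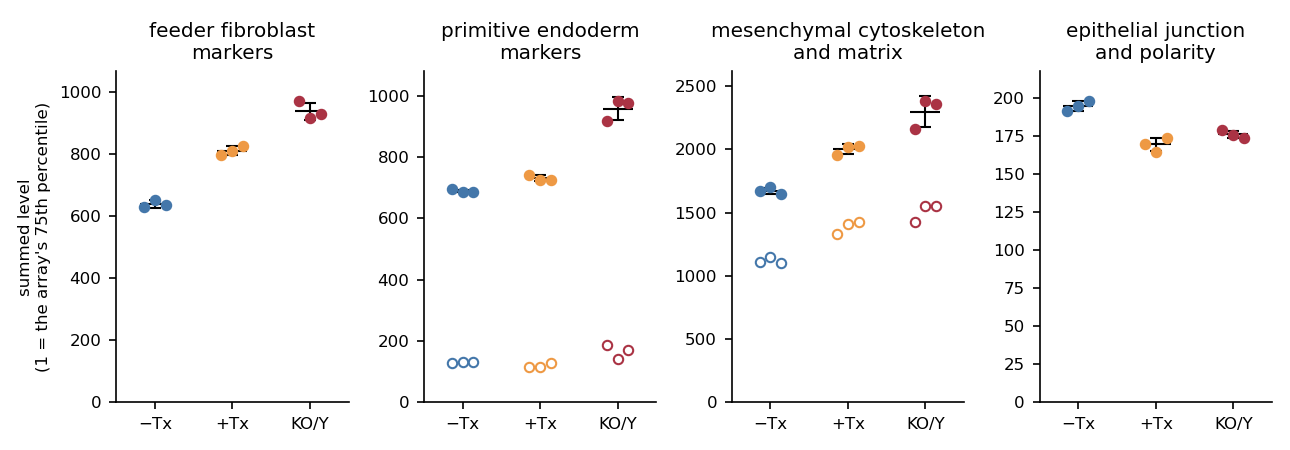
Summed level of 4 marker lists on each array, in units of the array's 75th percentile (vertical axes from 0, a range of its own per list); points are arrays and bars are the mean ± SD of 3. Open points are the sums without Sparc in the 2 lists that hold it. The fibroblast sum rises from −Tx through +Tx to KO/Y, the epithelial sum is highest in −Tx, and without Sparc the primitive endoderm sum is above its −Tx range in KO/Y alone and the mesenchymal ranges of +Tx and KO/Y meet at 1430. The primitive endoderm sum without Sparc still holds a bright marker that is lower in +Tx and lowest in KO/Y, so it does not give the course of the other markers.

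Signals that feed the transition were read at the level of ligands, receptors and effectors. Of 26 genes of the TGF-beta, BMP and Wnt pathways, 7 rose and 5 fell in +Tx over −Tx ES cells (median −0.02), 5 rose and 4 fell in KO/Y over +Tx (median 0), and 10 rose and 8 fell in KO/Y over −Tx (median 0.12). Among ligands, Bmp2 was called higher (1.33) and Bmp4 lower (−1.34) in KO/Y over −Tx ES cells (adjusted p = 8.34e-06 and 1.52e-06, limma), and Lef1, a nuclear effector of Wnt signalling, was called lower (−1.36, adjusted p = 7.57e-06). The receptor Tgfbr2 and the ligand Tgfb2, chosen after their values were seen, rose by 0.89 and 0.99. With the slide as a block 1 rose and 4 fell in +Tx over −Tx, and 3 rose and 6 fell in KO/Y over −Tx ES cells.

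The genes whose levels ran most like those of the called members over the 9 arrays were named by Pearson correlation among 15348 genes with a symbol, as a description of arrays that share slides and groups. For Snai1 they were Defa29 (r = 0.999), AA414992 (0.998) and Lamb3 (0.997), a laminin chain of epithelial basement membranes, and 1456 genes had r above 0.9. For Gsc they were Olfml3 (0.989), Plekhg4 (0.988) and C2cd4b (0.988), with 879 genes above 0.9. For T they were 3830403N18Rik (0.99), Sar1b (0.99) and Nxf2 (0.986), with 650 above 0.9. Lamb3 rose by 0.72 in +Tx over −Tx and by 0.99 in KO/Y over +Tx ES cells, and Olfml3 by 0.59 in KO/Y over +Tx ES cells.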

How the data were processed

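Cy3-labelled RNA of male mouse ES cells was hybridised to Agilent mouse arrays, 3 for each of the 3 groups. The authors deposited a scanner file per array, made with Agilent Feature Extraction 10.7.3.1, whose intensity values are background-subtracted and linear. A deposited series table holds 1 signal column per group, also linear (medians 0.121, 0.122 and 0.124), and its log2 values correlated with the mean of the 3 arrays at r = 1. Its centring is not given in the sources used here, and it served as an alternative for the folds of the 8 genes tested, with no test.

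After outlier spots (117 to 178 per array) were dropped and the spots of a probe averaged, the 75th percentile of an array was taken from its log2 intensities in R 4.3.3 (package data.table, version 1.17.8). Probes had to be well above background in all arrays of some group, and a gene was read by its brightest probe. Some list genes, among them Sox17, Cer1, Cdx2 and Ovol1, were thus tested through the KO/Y arrays alone. The counts of the lists hold such genes, whose rise in KO/Y ES cells the filter favoured. Of 55681 probes, 27235 were named through a RefSeq accession. One model of the 9 arrays over 22432 genes was fitted in limma 3.58.1 with lmFit, eBayes and Benjamini-Hochberg adjustment. "Rose" and "fell" stand for an adjusted p under 0.05, and a call also needs over 2-fold. A fold against a group with no array well above background is a bound, set at an array's lowest signal that was well above it. The number of arrays limits the precision. The method was tested on simulated data.

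The genes and the 11 lists were chosen with earlier results of these data known. The plan named all 9 members, up to 4 called genes per list with the largest change, defining markers of each list, and the 3 genes most like each called member. For some lists more called genes are named than that, such as Ovol1. The text marks genes chosen after their values were seen. One gene of a list counts in its totals and is not reported here by name.

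Alternatives changed 1 choice at a time: normexp with an offset of 50, quantile or median scaling, other filters, a floor, the slide as a block or 1 slide alone, other variance estimates, other call rules, other uses of probes and outlier spots, the 6 arrays compared, each array left out, and the series table. The sums without Sparc and the floor for list genes were added after seeing the data.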

Additional observations from a re-analysis of the deposited data

How the results depend on the processing

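Over the 8 genes tested and all settings, 513 values kept their direction and side of the test, 21 lost the adjusted p, 5 gained it and 5 changed sign, and the 24 untested values from the series table moved by less than the spread between arrays. The sign changes were T in +Tx over −Tx ES cells with normexp (−0.014), Cdh1 in KO/Y over +Tx ES cells with quantile normalization (0.006) and with an array left out (from −0.061 to 0.02), and Cdh2 in KO/Y over −Tx ES cells on its second probe (−0.019), none of which passed. The count of genes past the adjusted p in +Tx over −Tx ES cells (5) became 3 without the filter on dim probes, 1 with the slide as a block, 0 on 1 slide alone and 2 to 6 with an array left out, lowest without −Tx array 3 (2) and without −Tx array 1 (3). In KO/Y over +Tx ES cells it was 3 to 5 with an array left out, highest without +Tx array 3, and in KO/Y over −Tx ES cells (7) it was 3 with the slide block. With no fold limit the calls were 5, 3 and 7 in the 3 comparisons in place of 0, 0 and 3, and the 3 calls in KO/Y over −Tx ES cells became 0 with normexp 0 in a test against a fold of 2, 2 with the slide block and 2 to 3 with an array left out. The number of list genes past the adjusted p in +Tx over −Tx ES cells fell by 46.7% to 57 with the slide block and fell by 63.6% to 39 on 1 slide. It went from 95 to 59 on 1 slide in KO/Y over +Tx, and from 157 to 88 with the slide block in KO/Y over −Tx ES cells. On 1 slide alone the fit had fewer arrays; the cause of the other changes was not tested. No paired analysis was possible because the sources used here do not tie arrays to replicate numbers. T, Mixl1 and the dimmer probes of Zeb2 lie near background, which limits their folds.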

Other observations

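Other lineages and states of the early embryo were read from 3 further lists. Of 11 neuroectoderm markers tested, 4 rose and 4 fell in KO/Y over −Tx ES cells (median log2 fold change 0.04), and 3 and 3 with the slide as a block. Pax6, a homeobox factor of the eye and neural tube, was at least 2.14-fold lower in KO/Y than in −Tx ES cells (adjusted p = 4.82e-06, limma), and Hes5, a Notch target of neural progenitors, had −1.15 (adjusted p = 0.000459). Of 10 trophectoderm markers, 7 rose and 1 fell in KO/Y over −Tx ES cells (median 0.66), and 2 rose and 1 fell under the slide block. The one that fell was Tfap2c, with −1.96 in +Tx over −Tx and −1.38 in KO/Y over −Tx ES cells (adjusted p = 3.02e-07 and 1.07e-06, limma). In +Tx over −Tx ES cells 2 trophectoderm markers rose and 3 fell. Among those that fell, Krt7 was well above background on 0 of 3 arrays in −Tx and in +Tx ES cells, so its fall was not measured. The summed level of the trophectoderm markers was 10.4 to 10.6 on the −Tx, 5.39 to 5.54 on the +Tx and 7.93 to 8.22 on the KO/Y arrays. Tfap2c made up 33.5% to 72% of it. Hand1, Eomes and Cdx2 are counted in the mesendoderm list as well. Of 11 primed epiblast markers, 4 rose and 6 fell in KO/Y over −Tx ES cells (median −0.30), and 2 and 4 with the block. The Nodal antagonist Lefty1 had −2.40 (adjusted p = 4.09e-08), while Nodal itself, the streak-inducing ligand, named after its value was seen, had 0.37 (adjusted p = 0.000879).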
